A study of Mus musculus with 4 samples.

Results

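The 4 mammalian Notch receptors (Notch1, Notch2, Notch3 and Notch4) and 4 of their canonical ligands (Jag1, Jag2, Dll1 and Dll4) were followed through the cell types of the mouse lung. They were chosen by name as 8 of the 32285 genes in the deposited count matrices, by a rule that uses none of their values. Single-nucleus RNA-seq had been run on whole lungs of 2 wild-type (WT) mice and 2 VEcad-TRF2DN-Tg (Tg) mice, all C57/BL6J and 8 to 9 weeks of age. The Tg mice carried a dominant-negative form of TRF2, a telomere-binding protein, under the VE-cadherin promoter, which is active in endothelial cells (ECs) of every vascular bed. According to the study both genotypes had been exposed to chronic hypoxia, so every value below belongs to hypoxic lungs. No normoxic nuclei were analysed here. Terf2, the gene that encodes TRF2, was at 54.1 and 51.6 UMIs per 1000000 in vascular ECs of WT and 38.3 and 49.0 in those of Tg mice, and whether transgene transcripts are counted under it is not given in the sources used here.

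Notch signalling acts between touching cells. A Jagged or Delta-like ligand on one cell binds a receptor on its neighbour, the receptor is cut by ADAM proteases and then by gamma-secretase, and the freed intracellular part joins Rbpj and Mastermind-like proteins in the nucleus to switch on Hes and Hey genes. In blood vessels Dll4, Jag1, Notch1 and Notch4 are known as endothelial components that shape sprouting and arterial identity, and Notch3 is known as the receptor of pericytes and vascular smooth muscle cells. In the airway epithelium the same pathway sets the balance of secretory and ciliated cells.

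Nuclei were sorted into classes by defining markers, none of which was a member of the family, and each class name below is to be read as "-like". Droplets with at least 1500 unique molecular identifiers (UMIs) numbered 25269 to 44000 per mouse, and 3543 to 6596 of them carried the markers of a single class. Shares of a member's UMIs below are among these named nuclei only, which were 10.8% to 22.5% of those droplets. Of 62 marker genes kept aside as a check, 54 were highest in their own class. The exceptions were 1 each of the markers of ECs, aerocytes, venous ECs, pericytes, alveolar macrophages and monocytes or interstitial macrophages, and 2 of smooth muscle. Free RNA was abundant: it was estimated to supply 37.3% to 50.2% of the UMIs of vascular EC nuclei. Every level is therefore given as UMIs per 1000000 UMIs of the class (CPM) and set beside the CPM in empty droplets (300 to 800 UMIs) of the same mouse. A level at or below that of the empty droplets was read as background. That reading does not show absence, since free RNA supplied only part of the UMIs of the nuclei. Values are listed in the order WT replicate 1, WT replicate 2, Tg replicate 1, Tg replicate 2. CPM from 3′ tags was compared between classes for 1 gene at a time and not between genes.

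The members fell into several cellular distributions. Notch3 stood highest in pericytes and Jag1 in ciliated cells in all 4 mice, and Notch4 had its highest mean in vascular ECs. Jag2 was above background in vascular ECs and ciliated cells, Dll1 and Dll4 at low levels in vascular ECs and Notch1 in vascular ECs, and Notch2 was highest in immune and secretory cells. Across 14 classes with at least 5 nuclei in each mouse, 6 of the 8 members passed the low-count filter and Dll1 and Dll4 did not. In edgeR's quasi-likelihood test of each class against the mean of the other 13 classes (adjusted p below 0.05 over 12627 genes), 36 of the 84 member tests passed, 19 higher and 17 lower.

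The counts of members called differed by class and are given with the share of all tested genes called in the same class. In vascular ECs 5 of the 6 were called, against 25.2% of all genes. The count was also 5 of 6 in secretory cells (35.6%), and it was 4 in alveolar macrophages (45.9%), where 3 of the 4 were lower. It was 3 in ciliated cells (49.1%), in alveolar type 1 (AT1) cells (39.6%), where each was lower, and in dendritic cells (17.4%). It was 2 in pericytes (9.38%), B cells (20.9%), T cells (24.0%), mesothelial cells (31.9%) and alveolar fibroblasts (22.3%). In alveolar type 2 (AT2) cells (37.8%), lymphatic ECs (10.8%) and monocytes or interstitial macrophages (12.0%) it was 1. With so large a background in most classes, the counts were read only as a description, and the members' own levels follow.

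Jag1, a Jagged-type ligand, was highest in ciliated cells, the airway cells that bear motile cilia. Its level there was 262, 233, 156 and 190.0 CPM, from 549, 290, 376 and 395 UMIs in 356, 247, 598 and 455 nuclei. The ciliated level exceeded that of each of the other 13 classes in all 4 mice, by 2.3 to 3.0 times over the next, and was 1.90 to 3.74 times that of the empty droplets. Ciliated cells were 5.96% to 10.5% of the named nuclei and held 24% to 42.6% of their Jag1 UMIs. The difference was large against the residual spread over classes and mice, with the mouse as a block (edgeR adjusted p = 4.82e-35). Against the summed UMIs of all other named nuclei it was 2.22 ± 0.11 (log2 ± SE).

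In vascular ECs Jag1 was at 107, 74.6, 50.0 and 63.4 CPM, and in the empty droplets at 138, 104, 41.7 and 69.8 CPM. The EC level was thus above the empty droplets in only 1 of 4 mice, Tg replicate 1. Subtraction of the estimated free RNA, which supplied only part of the UMIs, left 80.8, 45.1, 55.0 and 59.1 CPM in the class. The class passed the test as higher than the mean of the other classes (edgeR adjusted p = 3.10e-05), but not against the summed UMIs of the other nuclei (log2 0.19, adjusted p = 0.117). AT1 cells, the flat cells of the gas-exchange surface, were lower than the mean of the other classes (37.0, 30.2, 17.7 and 24.1 CPM; edgeR adjusted p = 2.94e-05).

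Among EC subclasses Jag1 was uneven. Arterial ECs held 175, 75.8, 137 and 90.6 CPM, from 6, 2, 19 and 9 UMIs, and were above the empty droplets in 3 of 4 mice. Venous ECs held 180.1, 61.3, 54.5 and 83.5 CPM, and also exceeded the empty droplets in 3 of 4 mice, the exception being WT replicate 2 in both subclasses. Aerocytes, the capillary ECs specialised for gas exchange, held 63.5, 13.7, 12 and 27.4 CPM, below the empty droplets in every mouse and below arterial ECs of the same mouse in every case. In edgeR's test of each subclass against the mean of the other subclasses aerocytes were lower (log2 −1.44 ± 0.35, adjusted p = 0.00119) and arterial ECs higher (1.19 ± 0.34, adjusted p = 0.0195). The arterial call was lost without Tg replicate 1 (adjusted p = 0.645) or Tg replicate 2 (adjusted p = 0.0549), and against the summed other ECs (adjusted p = 0.299). It was also lost with no filter on low counts (log2 1.06 ± 0.34, edgeR adjusted p = 0.1315).

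**Figure D1:**
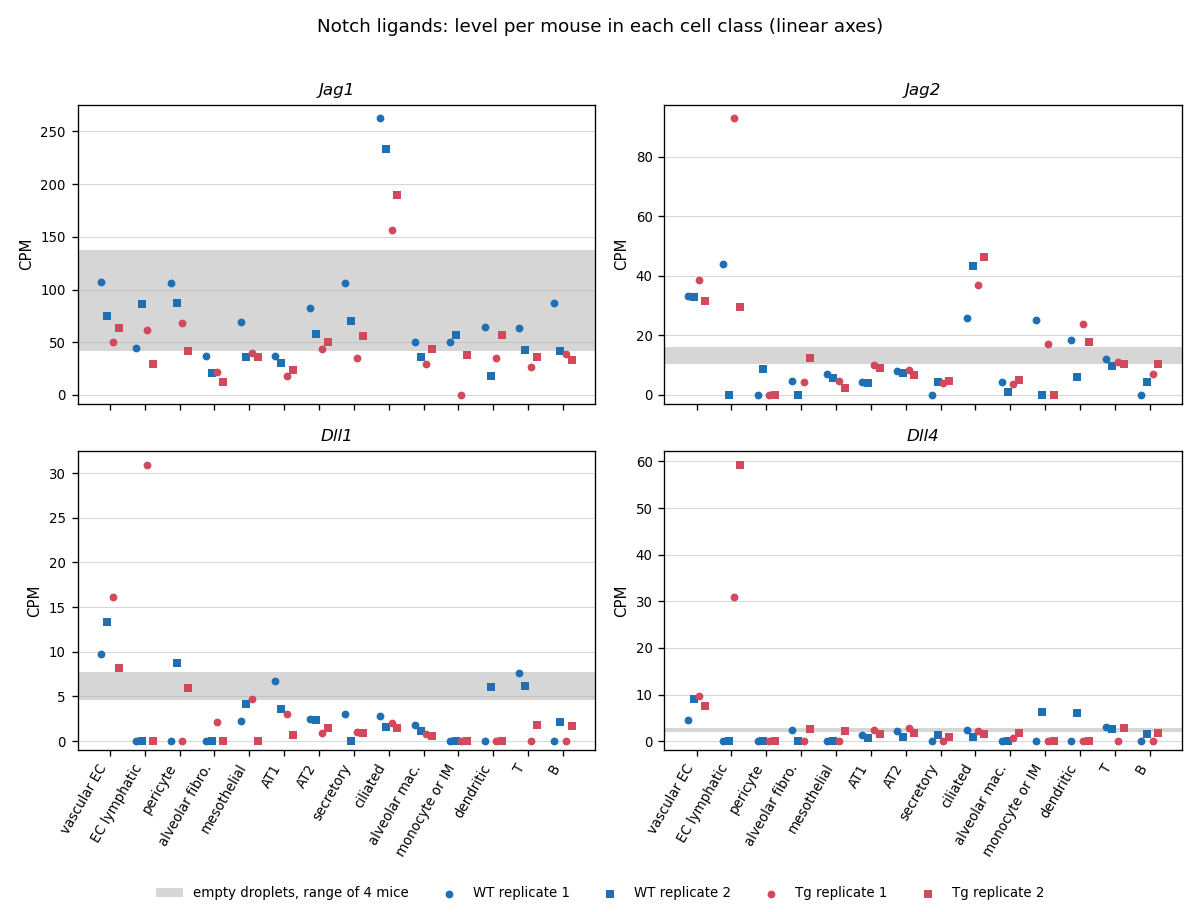
Levels of the 4 ligands in each of 14 classes and 4 mice, in CPM of the class on linear axes; blue points are WT and red points Tg mice, circles replicate 1 and squares replicate 2, and the grey band spans the empty droplets. Jag1 is highest in ciliated cells (156 to 262 CPM), and Jag2 in ciliated cells, vascular ECs and the few lymphatic ECs.

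Jag2, the other Jagged-type ligand, was found in vascular ECs and ciliated cells in all 4 mice. In vascular ECs it was at 33.2, 32.8, 38.7 and 31.6 CPM (65, 54, 96 and 96 UMIs), and in ciliated cells at 25.8, 43.4, 37.0 and 46.2 CPM (54, 54, 89 and 96 UMIs). In the empty droplets it was at 15.7, 10.5, 16.2 and 12.3 CPM. Both classes lay above the empty droplets in every mouse, by 2.12 to 3.12 and by 1.65 to 4.13 times, and the values of the classes overlapped. Each held 27.3% to 34.8% of the Jag2 UMIs of named nuclei. Lymphatic ECs had the highest mean, at 44.1, 0, 92.9 and 29.7 CPM, but on 1, 0, 3 and 1 UMIs. Both were higher than the mean of the other classes (edgeR adjusted p = 7.74e-16 for vascular ECs and 2.39e-19 for ciliated cells).

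Within the endothelium Jag2 was low in venous ECs, at 8.44, 6.13, 13.6 and 7.26 CPM from 3, 1, 5 and 2 UMIs, which was below the empty droplets in each mouse. General capillary ECs held 34.7, 38.3, 42.6 and 34.8 CPM and aerocytes 34.2, 41.1, 42.0 and 31.3 CPM, and neither overlapped the venous values. Arterial ECs held 146, 37.9, 36.0 and 90.6 CPM, but from only 5, 1, 5 and 9 UMIs. Jag2 did not pass the filter of the subclass test, in which 4 of the 20 tests of the other members were called and 10.2% of all tests were. With no filter on low counts, venous ECs were lower than the mean of the other subclasses (log2 −1.98 ± 0.46, edgeR adjusted p = 8.28e-04). Against the summed UMIs of the other ECs, a comparison in which 8.7% of genes were called and which Jag2 entered through its higher level in those ECs, the difference was −2.03 ± 0.37 and is given as a description.

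Dll1 and Dll4, Delta-like ligands, were rare in these libraries, and vascular ECs were the class in which both stood above background in every mouse. Lymphatic ECs had a higher mean for Dll4, but on 3 UMIs in all. Dll1 in vascular ECs was at 9.70, 13.4, 16.1 and 8.22 CPM (19, 22, 40 and 25 UMIs), against 6.30, 7.70, 4.60 and 6.16 CPM in the empty droplets. Dll4 in vascular ECs was at 4.60, 9.10, 9.69 and 7.56 CPM (9, 15, 24 and 23 UMIs), against 2.70, 1.96, 2.86 and 2.57 CPM. Both were above the empty droplets in 4 of 4 mice, and vascular ECs were the only class of 14 of which that held for either gene. Vascular ECs were 11.3% to 18.7% of the named nuclei and held 29.2% to 62.5% of their Dll1 UMIs and 29.0% to 47.1% of their Dll4 UMIs. Against the summed UMIs of the other nuclei the vascular EC difference was 2.47 ± 0.28 for Dll1 and 2.29 ± 0.31 for Dll4 (log2). In that comparison 43.7% of all genes were called. Both genes entered it through their higher level in vascular ECs, so the differences are given as a description.

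The Delta-like ligands differed between EC subclasses, though on few UMIs. Dll4, known as an arterial and tip-cell ligand, had 1 UMI in all venous nuclei of the 4 mice together, while aerocytes had 1, 4, 7 and 4 UMIs (4.88, 27.4, 42.0 and 15.7 CPM) and arterial ECs 1, 1, 3 and 2 (29.2, 37.9, 21.6 and 20.1 CPM). Dll1 had 6, 0, 17 and 6 UMIs in venous ECs (16.9, 0, 46.3 and 21.8 CPM) and 3 in all arterial nuclei together, each of them in Tg replicate 1. With no filter on low counts, venous ECs were lower in Dll4 (log2 −3.58 ± 0.86, edgeR adjusted p = 0.00161) and higher in Dll1 (1.6 ± 0.48, adjusted p = 0.0288) than the mean of the other subclasses, in a fit that called 3.18% of all genes. Lymphatic EC markers in the venous nuclei summed to 1.25 to 2.08 times the empty-droplet level, with 2 of 7 above it in all 4 mice, and their part in the venous levels of Jag2, Dll1 and Dll4 was not tested. Dll4 was not detected in pericytes, where 0 of 464985 UMIs allows a level of up to 6.45 CPM, a limit for counting error only.

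Notch1, the receptor with the widest known vascular role, was above the empty droplets in 4 of 4 mice only in vascular ECs. Its level there was 88.3, 92.8, 99.3 and 95.3 CPM (173, 153, 246 and 290 UMIs), against 66.6, 87.1, 51.4 and 68.2 CPM in the empty droplets. The 4 EC values lay close together and above those of secretory cells, the next class in order, in every mouse. The margin over the empty droplets was small in WT replicate 2 (1.07 times) and larger in Tg replicate 1 (1.93 times). Vascular ECs were higher than the mean of the other classes (edgeR adjusted p = 1.25e-13) and than the summed other nuclei (log2 1.25 ± 0.09).

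Pericytes and lymphatic ECs had similar or higher mean Notch1 levels with more spread. Pericytes, the mural cells of capillaries, held 181, 52.5, 113 and 125 CPM from 17, 6, 10 and 21 UMIs, and lymphatic ECs 221, 85.9, 217 and 178 CPM from 5, 4, 7 and 6 UMIs. In both, WT replicate 2 was the lowest and lay below its empty droplets, and both ranges overlapped that of vascular ECs. Both were called higher than the mean of the other classes (edgeR adjusted p = 1.19e-05 and 0.00462). General capillary ECs were lower in Notch1 than the mean of the other EC subclasses (log2 −0.57 ± 0.17, edgeR adjusted p = 0.0204). They held 77.8, 87.3, 86.3 and 79.6 CPM, and arterial ECs had a similar mean (29.2, 37.9, 165 and 90.6 CPM). The call was lost without WT replicate 1, Tg replicate 1 or Tg replicate 2 (adjusted p = 0.0629, 0.382 and 0.232). It was also lost with no filter on low counts (log2 −0.29 ± 0.19, adjusted p = 0.426).

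Notch2 had its highest levels outside the vessel wall. Dendritic cells held 584, 505, 355 and 356 CPM, monocytes or interstitial macrophages 401, 654, 425 and 281 CPM, and secretory cells of the airway 454, 370.0, 404 and 386 CPM. In the empty droplets it was at 201, 258, 79.9 and 119.5 CPM. These 3 classes, with B cells and alveolar macrophages, overlapped in their ranges and lay above the empty droplets in every mouse, as did pericytes (329, 289, 102 and 196 CPM). Each of the 5 was called higher than the mean of the other classes, with edgeR adjusted p from 4.97e-13 in secretory cells to 1.26e-04 in monocytes or interstitial macrophages.

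In vascular ECs Notch2 was at 129.7, 172, 89.2 and 113 CPM, above the empty droplets only in Tg replicate 1. Subtraction of the estimated free RNA left 68.1, 86.3, 94.7 and 109 CPM. The class was lower than the mean of the others (edgeR adjusted p = 1.72e-12) and than the summed other nuclei (log2 −0.75 ± 0.08). Within the endothelium lymphatic ECs were the highest subclass in mean, at 397, 172, 155 and 326 CPM, but from 9, 8, 5 and 11 UMIs. Their call as higher (edgeR adjusted p = 0.0449) was lost without WT replicate 1, Tg replicate 1 or Tg replicate 2 (adjusted p = 0.237, 0.0536 and 0.297). It was also lost with no filter on low counts (log2 0.60 ± 0.33, adjusted p = 0.478).

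**Figure D2:**
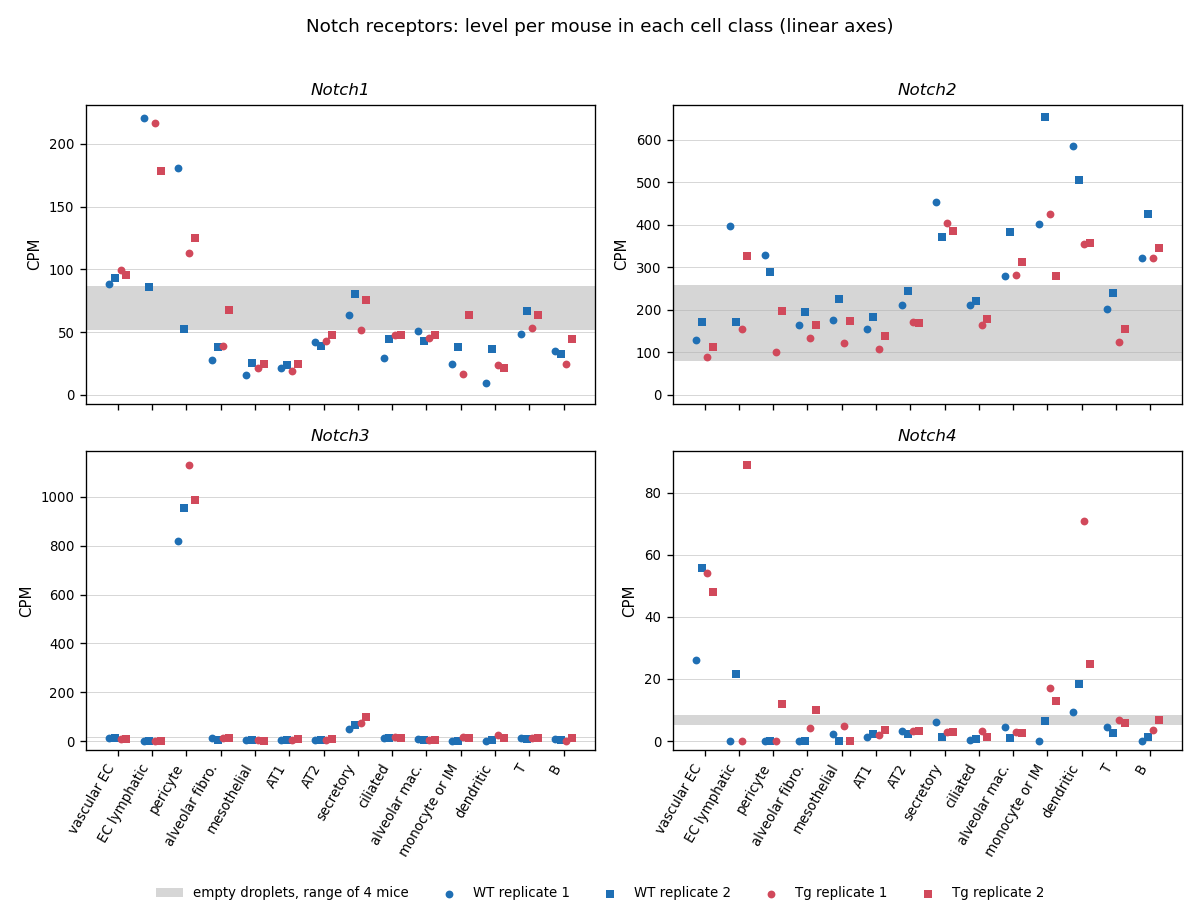
Levels of the 4 receptors in each of 14 classes and 4 mice, in CPM of the class on linear axes with a separate scale for each gene; blue points are WT and red points Tg mice, circles replicate 1 and squares replicate 2, and the grey band spans the empty droplets. Notch3 stands at 818 to 1133 CPM in pericytes and at 51.4 to 99.5 CPM in secretory cells, and Notch4 at 26.0 to 55.8 CPM in vascular ECs.

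Notch3, the receptor known from mural cells, showed the steepest distribution of the 8. In pericytes it was at 818, 954, 1133 and 987 CPM, from 77, 109, 100 and 166 UMIs in 31, 30, 42 and 57 nuclei. In the empty droplets it was at 18.9, 11.1, 11.8 and 13.9 CPM. The pericyte level was 43.3 to 95.8 times that of the empty droplets, and 9.92 to 15.9 times that of the next class of the same mouse. The mean ratio to the empty droplets was 74.1, and 14.1 against droplets of 100 to 300 UMIs, which held only 1, 2, 2 and 1 Notch3 UMIs. Pericytes were 0.724% to 0.875% of the named nuclei and held 34.3% to 37.2% of their Notch3 UMIs. All barcodes together held 1429, 1468, 1830 and 3209 Notch3 UMIs, of which 1099, 1004, 1088 and 2061 lay in barcodes of no class. The difference from the other classes was large against the residual spread over classes and mice, with the mouse as a block (edgeR adjusted p = 5.45e-45). Against the summed other nuclei it was 6.35 ± 0.17 (log2).

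By nucleus, 74.2%, 83.3%, 76.2% and 86.0% of pericytes had at least 1 Notch3 UMI, at median depths of 2527, 3006, 1972 and 2622 UMIs. The Wilson 95% intervals ran from 56.7% at the lowest to 92.7% at the highest. In AT1 nuclei, which should lack the gene, the shares were 3.09%, 2.23%, 0.946% and 2.91% at median depths of 3999, 4054, 2890 and 3223 UMIs. After each nucleus was thinned to 1500 UMIs the pericyte shares were 54.8%, 76.7%, 71.4% and 75.4%. The difference between the classes was therefore present in the shares as in the summed levels.

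Markers of smooth muscle, the other mural cell type, were also present in the pericyte nuclei. Of 12 markers 5 were above the empty droplets in all 4 mice, with a summed level of 489 to 770.0 CPM against 97 to 109.5 CPM in the empty droplets, and the contractile or smooth muscle genes Actg2, Cnn1 and Hhip were at 0. Their part in the Notch3 level was not tested. Too few nuclei were named smooth muscle (3, 0, 3 and 7) for a test, and 0, 0 and 2 Notch3 UMIs were counted in the 3 mice that had any.

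Secretory cells were the second Notch3 class, at 51.4, 67.5, 72.9 and 99.5 CPM from 17, 48, 72 and 107 UMIs. Each value was above the empty droplets of its mouse, by 2.72 to 7.18 times, and above that of ciliated cells, which held 14.3, 12.8, 17.9 and 12 CPM. The class was called higher (edgeR adjusted p = 3.43e-21; log2 2.36 ± 0.16 against the summed other nuclei). Pericyte markers in secretory nuclei summed to 0.326 to 0.463 times the empty-droplet level, and 0 of 12 were above it in all 4 mice. In vascular ECs Notch3 was at 11.2, 11.5, 6.86 and 9.20 CPM, at or below the empty droplets in 3 of 4 mice and 1.04 times them in WT replicate 2. No Notch3 UMI was counted among 298945 in arterial or 135221 in lymphatic EC nuclei, which allows up to 10.04 and 22.2 CPM. Notch3 overlaps the antisense gene Gm17276, and the sources used here do not give the strand setting of the counts, so reads of the pair may not be told apart.

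Notch4, known as an endothelial receptor, was at 26.0, 55.8, 54.1 and 48.0 CPM in vascular ECs, from 51, 92, 134 and 146 UMIs. In the empty droplets it was at 6.30, 5.04, 8.49 and 7.70 CPM. The EC level was 4.14 to 11.1 times the empty-droplet level, with WT replicate 1 the lowest, and vascular ECs held 63.0% to 72.4% of the Notch4 UMIs of named nuclei. All barcodes together held 375, 619, 625 and 964 Notch4 UMIs, of which 255, 415, 246 and 489 lay in barcodes of no class. The class was higher than the others (edgeR adjusted p = 1.32e-25; log2 3.95 ± 0.20 against the summed other nuclei). Of vascular EC nuclei 7.43%, 15.4%, 11.3% and 11.9% had a Notch4 UMI at median depths of 2697, 3152, 2040 and 2440 UMIs, against 0.650%, 1.11%, 0.631% and 1.28% of AT1 nuclei at the depths given above.

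Each vascular subclass with enough nuclei to judge held Notch4. General capillary ECs held 20.4, 71.8, 57.2 and 50.7 CPM, venous ECs 50.6, 42.9, 65.4 and 32.7 CPM, and aerocytes 29.3, 20.5, 30.0 and 19.6 CPM. Arterial ECs ranged from 0 to 101 CPM on 0, 1, 10 and 10 UMIs. The aerocyte values lay below the venous ones in every mouse and did not overlap them, but no subclass was called for Notch4 in edgeR's test (lowest adjusted p = 0.278, in aerocytes). Dendritic cells were also called higher for Notch4 (edgeR adjusted p = 1.70e-04), on 1, 3, 6 and 7 UMIs and 9.27, 18.2, 71.0 and 24.9 CPM. Endothelial markers in dendritic nuclei summed to 0.339 to 0.512 times the empty-droplet level, and 0 of 18 were above it in all 4 mice. Lymphatic ECs held 0, 21.5, 0 and 89.0 CPM on 0, 1, 0 and 3 UMIs, so that vascular ECs were the highest class for Notch4 in both WT mice, dendritic cells in Tg replicate 1 and lymphatic ECs in Tg replicate 2. In pericytes Notch4 had 0, 0, 0 and 2 UMIs.

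**Figure D3:**
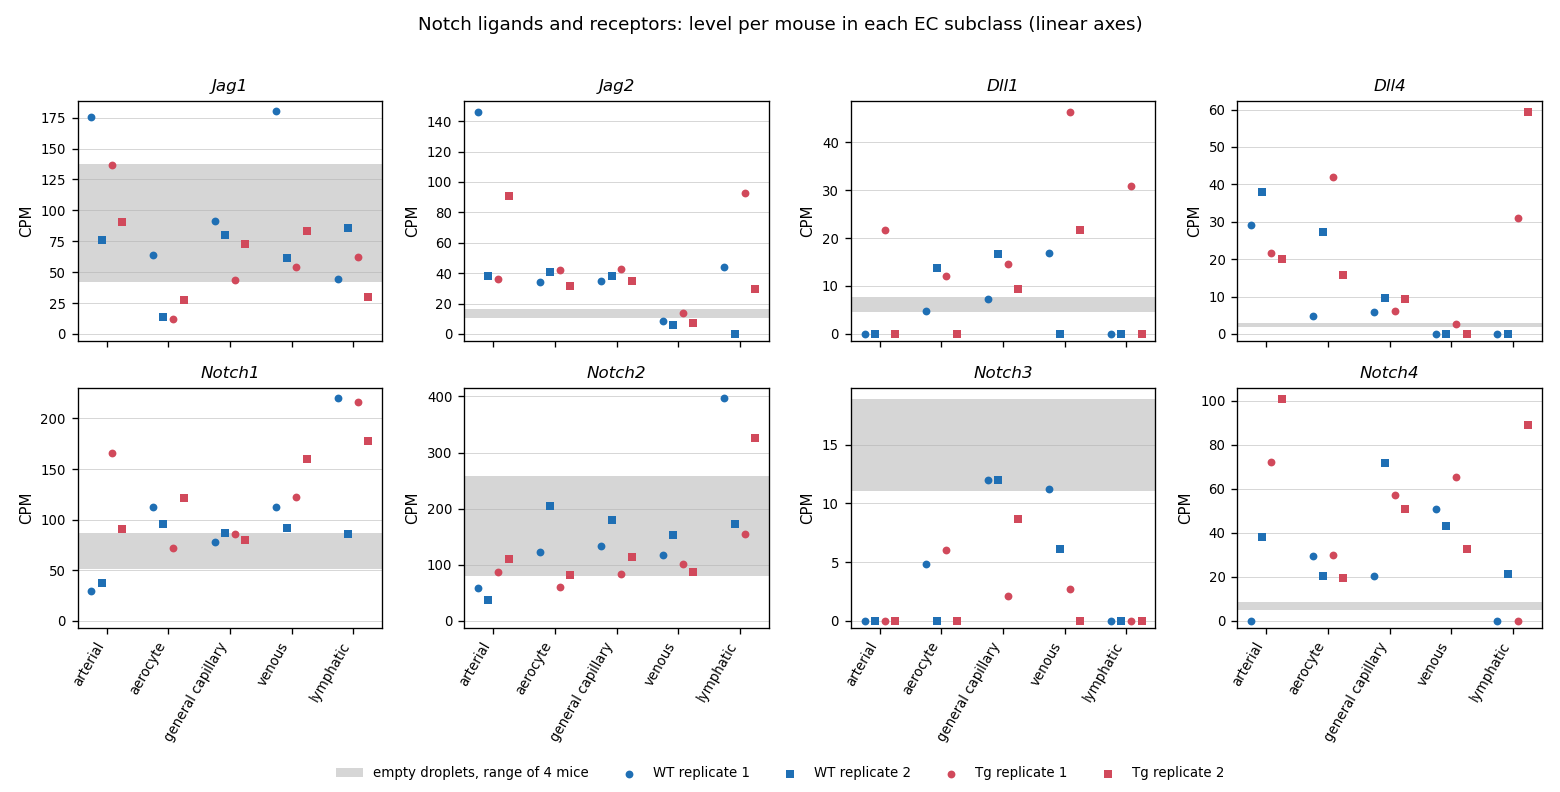
Levels of the 8 members in 5 EC subclasses and 4 mice, in CPM of the subclass, with a separate linear scale for each gene; blue points are WT and red points Tg mice, circles replicate 1 and squares replicate 2, and the grey band spans the empty droplets. Aerocytes sit low for Jag1 (12 to 63.5 CPM) and venous ECs for Jag2 (6.13 to 13.6 CPM) and Dll4 (0 to 2.72 CPM).

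The genes most like each member were taken over 17 classes, with EC subclasses in place of vascular ECs, as the 3 highest Pearson correlations of log2(CPM + 1) among 14468 genes. These are descriptions only, since the classes share libraries, depth differences and free RNA. The Notch3 pattern was closest to Lrrc4c (r = 0.917), E130008D07Rik (0.904) and Gucy1a2, a soluble guanylate cyclase subunit (0.888). For Notch4 they were BC028528 (0.913), Mmp28 (0.912) and Grasp (0.885), for Notch1 Atp6v1g1 (0.842), Arap3 (0.810) and Gng11 (0.806), and for Notch2 Zdhhc13 (0.889), Morc3 (0.842) and Tpd52 (0.836). Jag2 and Dll4 were among each other's closest genes (r = 0.841), and Scn3b was near both (0.861 and 0.806). The remaining gene was Dynll2 (0.775) for Jag2 and Tpm3-rs7 (0.849) for Dll4. Jag1 was close to Trp53bp1 (0.845) and Prrg4 (0.823), and Dll1 to Grik2 (0.834), Mamstr (0.833) and Pkn3 (0.833).

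The comparison of Tg with WT asked whether the endothelial transgene changed the family. No member was called between the genotypes in any class by edgeR as fitted here, while 3 calls appeared with no filter on low counts and 0 to 5 when 1 mouse was left out. Over 18 classes, which overlap because the EC subclasses are also part of vascular ECs, 65 member tests were possible; 0 passed an adjusted p of 0.05, 12 had an unadjusted p below 0.05, and DESeq2 called 0 with 3 below that unadjusted value. In the same fits 13.4% of all genes were called at the adjusted threshold in vascular ECs, 7.81% in pericytes and 8.66% over the other 16 classes together. The share of all genes below the unadjusted value is not given here, so nothing was read from the counts of 12 and 3. The smallest two-sided p that exact permutation of 2 against 2 mice allows is 0.333. The estimated free RNA share of vascular EC nuclei was 46.4% and 50.2% in WT and 37.3% and 40.8% in Tg mice, and that of all barcodes 60.9% and 63.1% against 30.3% and 36.0%. Its part in the comparisons was not tested. The subtraction given below lowers a level that lies under the empty droplets and raises one above them. Its direction thus follows from the ratios to the empty droplets, and the subtracted values are given as a description. Mice are labelled only by replicate number, so the p-values measure the spread between these samples.

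Among the ligands in vascular ECs, Jag1 had the lowest adjusted p. It was at 107 and 74.6 CPM in WT and 50.0 and 63.4 CPM in Tg mice, without overlap (log2 −0.67 ± 0.24, edgeR adjusted p = 0.0934). In the empty droplets Jag1 was also lower in Tg mice, at 138 and 104 CPM in WT and 41.7 and 69.8 CPM in Tg mice (−0.92 ± 0.27, edgeR adjusted p = 0.0485), where 25.6% of all genes were called. After subtraction of the estimated free RNA the EC difference was −0.22 ± 0.35 (adjusted p = 0.779). The EC difference passed the threshold without WT replicate 2 (adjusted p = 0.0202) and when genes of low count were kept in the fit (0.0443), and the call in the empty droplets was lost without WT replicate 1, Tg replicate 1 or Tg replicate 2 (0.143, 0.291 and 0.0853).

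Jag1 was lower in Tg mice in each of the 11 classes in which it was tested, by −0.89 to −0.21 on the log2 scale, and adjusted p ran from 0.0934 to 0.715. In all barcodes together it was at 102, 71.4, 45.5 and 52.7 CPM, again without overlap (−0.89 ± 0.23, edgeR adjusted p = 0.0856), where 4.08% of all genes were called. In ciliated cells, the class with the most Jag1, the WT mice held 262 and 233 CPM and the Tg mice 156 and 190.0 CPM (−0.52 ± 0.20, adjusted p = 0.158). After subtraction of free RNA the ciliated difference was −0.59 ± 0.18 (adjusted p = 0.242). The fitted sign after subtraction was positive in 5 of the 9 classes tested, namely AT1 and AT2 cells, general capillary ECs, alveolar macrophages and mesothelial cells, where Jag1 lay near or below the empty droplets, and no direction was read from these.

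The other ligands gave small differences with wide errors in vascular ECs. Jag2 differed by 0.11 ± 0.25, Dll1 by 0.10 ± 0.44 and Dll4 by 0.37 ± 0.46 (edgeR adjusted p = 0.791, 0.896 and 0.616). Dll1 over all barcodes was at 4.88 and 4.21 CPM in WT and 2.55 and 2.07 CPM in Tg mice (−1.04 ± 0.30, adjusted p = 0.106). In AT1 cells Jag2 was at 4.41 and 3.98 CPM in WT and 10.0 and 8.99 CPM in Tg mice (1.25 ± 0.37, adjusted p = 0.0665), and all 4 values were below the empty droplets.

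**Figure D4:**
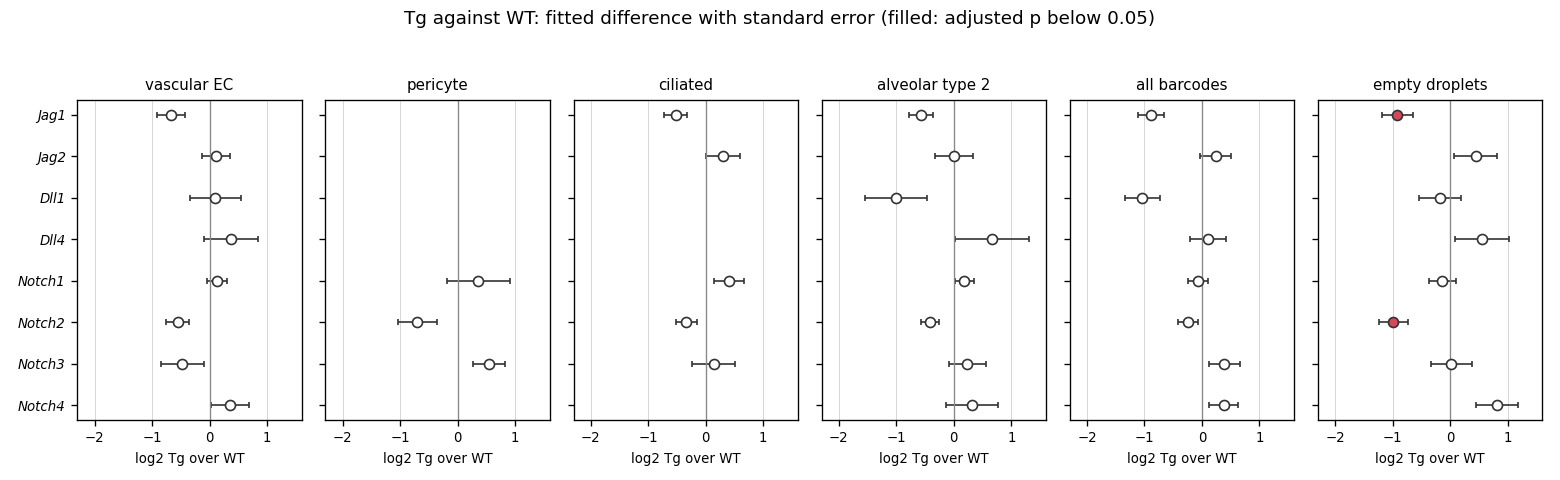
Log2 difference of Tg over WT mice for the members tested in vascular ECs, pericytes, ciliated cells, AT2 cells, all barcodes and empty droplets, with bars of 1 SE from edgeR; filled points have an adjusted p below 0.05. The only filled points are Jag1 (−0.92) and Notch2 (−0.99) in the empty droplets.

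Of the receptors in vascular ECs, Notch2 had the lowest adjusted p, at 129.7 and 172 CPM in WT and 89.2 and 113 CPM in Tg mice (log2 −0.56 ± 0.20, edgeR adjusted p = 0.100). Its level in the empty droplets was also lower in Tg mice. In the empty droplets it was at 201 and 258 CPM in WT and 79.9 and 119.5 CPM in Tg mice (−0.99 ± 0.26, edgeR adjusted p = 0.0359), a call lost without WT replicate 2, Tg replicate 1 or Tg replicate 2 (adjusted p = 0.0953, 0.238 and 0.0862). After subtraction of free RNA the EC difference had the other sign (0.35 ± 0.23, adjusted p = 0.455), in a class that lay at or below the empty droplets in 3 of 4 mice. Notch2 was lower in Tg mice in 16 of the 17 classes tested, with adjusted p from 0.100 to 0.935. After subtraction the fitted sign was positive in 5 of the 15 classes tested, vascular, general capillary and venous ECs, alveolar fibroblasts and secretory cells (0.07 ± 0.26 in the last).

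Notch1 and Notch4 in vascular ECs gave no call between genotypes. Notch1 was at 88.3 and 92.8 CPM in WT and 99.3 and 95.3 CPM in Tg mice, without overlap but with a small difference (log2 0.12 ± 0.18, edgeR adjusted p = 0.666). Notch4 was at 26.0 and 55.8 CPM in WT and 54.1 and 48.0 CPM in Tg mice, with overlap (0.36 ± 0.33, adjusted p = 0.484), and its sign turned without WT replicate 1 (−0.09).

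In pericytes Notch3 was at 818 and 954 CPM in WT and 1133 and 987 CPM in Tg mice, without overlap but with a difference that did not pass the test (log2 0.54 ± 0.28, edgeR adjusted p = 0.309). When barcodes with markers of several classes were kept the difference was −0.07. The overlapping antisense gene Gm17276 had 1 and 3 UMIs in WT and 19 and 16 in Tg pericytes, and its part in the Notch3 difference was not tested. In secretory cells it was at 51.4 and 67.5 CPM in WT and 72.9 and 99.5 CPM in Tg mice, also without overlap and without a call (0.50 ± 0.28, adjusted p = 0.355). In vascular ECs, where its level was read as background, Notch3 differed by −0.48 ± 0.37 (adjusted p = 0.412). That sign turned when barcodes with markers of several classes were kept (0.40) or at least 3000 UMIs were required (0.13). Notch1 in pericytes differed by 0.36 ± 0.54 and Notch2 by −0.70 ± 0.34 (adjusted p = 0.785 and 0.277).

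Whether the change in vascular ECs differed from that in the other named nuclei was tested as an interaction, and 0 of the 8 members passed (edgeR, lowest adjusted p = 0.288). At the same adjusted threshold 0.389% of all genes were called. Of the 8, 2 had an unadjusted p below 0.05, Notch3 (−1.01 ± 0.32) and Dll1 (1.15 ± 0.47). The share of all genes at that unadjusted value is not given here, so nothing was read from the count.

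The wider Notch pathway was described by 40 further genes, listed by role. In vascular ECs 30 of them passed the filter of the class test, and 7 were higher and 2 lower than the mean of the other classes, near the 25.2% of all genes called. The higher genes included the fringe glycosyltransferases Mfng (log2 2.35 ± 0.22) and Lfng (0.74 ± 0.17), which modify the receptors, the receptor-trafficking adaptor Numb (1.51 ± 0.09), the gamma-secretase subunits Aph1a (0.64 ± 0.14) and Psenen (0.49 ± 0.17), Dtx3l (0.34 ± 0.13) and Maml2 (0.31 ± 0.10). Of these, Lfng (18.4, 46.7, 24.2 and 31.2 CPM), Aph1a (35.7, 27.9, 43.6 and 50.6 CPM) and Psenen (12.3, 25.5, 64.2 and 46.3 CPM) were below the empty droplets in every mouse, whereas Mfng, Numb and Maml2 were above them in every mouse. The lower genes included Rbpj, the DNA-binding partner of the receptors (−0.55 ± 0.13). Vascular ECs held 234, 201, 108 and 169 CPM of Rbpj, above AT1 cells (161, 152, 59.9 and 107 CPM) in every mouse. Monocytes or interstitial macrophages (2207 to 6110 CPM) and dendritic cells (1094 to 1876 CPM) were far above both. The median log2 difference was 0.16 over the 30 pathway genes and 0.10 over all genes tested.

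In pericytes, where Notch3 was high, 3 of 30 pathway genes were higher and 1 lower, against 9.38% of all genes called. Maml3, a Mastermind-like coactivator, was higher by 1.32 ± 0.13. Its level of 1625, 1006, 918 and 1147 CPM was also reached in alveolar fibroblasts (1683, 1250, 1054 and 1059) and AT2 cells (1594, 1453, 1127 and 1276). Neurl1b, a ubiquitin ligase of ligands, was higher by 2.33 ± 0.58 on 2, 1, 4 and 8 UMIs, below the empty droplets in WT replicate 2. It was at 21.2, 8.75, 45.3 and 47.5 CPM in pericytes and at 55.6, 12.2, 23.7 and 42.7 CPM in dendritic cells. The target Heyl was called higher on 1, 1, 2 and 7 UMIs (10.6, 8.75, 22.7 and 41.6 CPM). Alveolar fibroblasts held 9.32, 12.7, 23.7 and 17.5 CPM of Heyl on 4, 6, 11 and 7 UMIs. Heyl entered the test through its higher level in pericytes and alveolar fibroblasts, so its call is given as a description. Maml2 was lower by −0.40 ± 0.13.

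Between genotypes, 33 pathway genes were tested in vascular ECs, and 2 were higher and 2 lower in Tg mice, against 13.4% of all genes called in the same fit, so the count was read as a description. Hes1, a canonical Notch target, was at 68.4 and 72.2 CPM in WT and 115 and 108 CPM in Tg mice (log2 0.69 ± 0.18, edgeR adjusted p = 0.0426). In the empty droplets it was at 157, 125, 217 and 221 CPM, above the EC level in every mouse and also higher in both Tg mice (0.88, adjusted p = 0.0511). Psenen rose (1.59 ± 0.35), and Maml3 and the ligand ubiquitin ligase Mib1 fell (−0.87 ± 0.20 and −0.73 ± 0.19; adjusted p = 0.0246, 0.0292 and 0.0425), and these 3 were called in the same direction in the empty droplets. Hey2, a target known from arterial ECs and singled out after its values were seen, had 4, 3, 33 and 18 UMIs in vascular ECs (2.28 ± 0.64). It passed the filter through its higher level in Tg mice, so the difference is given as a description. The arterial nuclei among them numbered 11, 6, 44 and 30 and held 1, 0, 11 and 8 of these UMIs. General capillary nuclei held 2, 3, 10 and 5. The part of the arterial nuclei in the difference was not tested.

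In pericytes 8 pathway genes were tested by genotype and 1 was lower in Tg mice, Rbpj (−1.31 ± 0.33, edgeR adjusted p = 0.0415), against 7.81% of all genes called. Rbpj was at 297, 324, 90.6 and 113 CPM in pericytes, from 28, 37, 8 and 19 UMIs. In the empty droplets it was at 304, 278, 91.2 and 164 CPM, so the pericyte level was above background only in WT replicate 2. Rbpj was called lower in the empty droplets as well (−1.0). None of the targets Hes1, Hey1, Hey2 and Heyl passed the low-count filter in pericytes. Over all barcodes 36 pathway genes were tested and 0 were called by edgeR, against 4.08% of all genes.

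The positions of the 8 genes on the mouse genome (build mm10, GENCODE vM21) were as follows. The ligands Jag1 (ENSMUSG00000027276, chr2:137081456-137116644, minus strand) and Dll4 (ENSMUSG00000027314, chr2:119325784-119335962, plus strand) share chromosome 2 with Notch1 (ENSMUSG00000026923, chr2:26457903-26516663, minus strand). Jag2 (ENSMUSG00000002799) is at chr12:112907819-112929776 on the minus strand and Dll1 (ENSMUSG00000014773) at chr17:15367354-15376872 on the minus strand. Notch2 (ENSMUSG00000027878) is at chr3:98013527-98150361 on the plus strand, Notch3 (ENSMUSG00000038146) at chr17:32120820-32166852 on the minus strand and Notch4 (ENSMUSG00000015468) at chr17:34564268-34588503 on the plus strand. Reads were counted over whole genes, introns included, and Notch1, Notch3 and Dll4 each overlap a gene of the opposite strand that was also counted.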

How the data were processed

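Nuclei were isolated from the lungs of 4 mice and sequenced with 10x Genomics 3′ chemistry. The deposited matrices hold raw UMI counts that the authors made with Cell Ranger (version 6.1.1 and build mm10 per the submitters' processing notes, introns included per the study's methods, while the matrix header names Cell Ranger 4); the strand setting is not given in the sources used here. Each library held 125261739 to 182014706 UMIs, and libraries shared 176 to 475 barcodes of at least 1500 UMIs. The study's own cluster-based selection of nuclei was not rebuilt.

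Barcodes with at least 1500 UMIs were assigned to a class where the UMIs of its defining markers exceeded the number that free RNA gives, and barcodes with markers of several classes, which include doublets, were left out, with no doublet caller run. UMIs were summed per mouse and class (at least 5 nuclei in each mouse). Differences were tested with the quasi-likelihood test of edgeR 4.0.16 in R 4.3.3, with TMM normalization, filterByExpr at a minimum count of 10 and Benjamini-Hochberg adjustment over all genes at 0.05. Class fits had the mouse as a block and genotype fits had genotype alone. The fitted mean over classes is unstable where a class has 0 UMIs, so the sizes of class differences of members are given against the summed UMIs of the other nuclei, a comparison added after the data were seen. DESeq2 1.42.0 was an alternative. Tests were checked on simulated counts with known changes. No recovery was required there of the pericyte genotype fit or of the smaller changes, so missed calls of that kind are not covered. The genes named are the 8 members, the pathway genes past the threshold in vascular ECs or pericytes, and the 3 genes most like each member with at least 10 CPM in some class. A few genes that this rule names are not reported here. The members and lists were chosen with earlier results of these data known. Intervals and limits cover counting error only.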

Additional observations from a re-analysis of the deposited data

How the results depend on the processing

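Of the members' genotype tests, 0 were called, 3 with no filter on low counts, 0 to 5 when 1 mouse was left out, and 1 with the replicate number as a replicate block (Jag1 in vascular ECs, −0.65, edgeR adjusted p = 0.0391). The labels share only a number: same-numbered mice had correlated deviations of 0.115 in vascular ECs, 0.351 in all barcodes and 0.0866 in empty droplets. Over all genes, vascular EC calls went from 1723 to 2997 with the replicate block, 731 with the numbers crossed, 3165 with no filter, 1121 with DESeq2, 610 at 3000 UMIs, 1116 with several-class barcodes kept, 206 with free RNA subtracted and 2 to 2413 with 1 mouse left out (2 without Tg replicate 1). Pericyte calls went from 203 to 115 with DESeq2, 341 crossed, 19 subtracted and 189 to 307 leaving 1 out. Calls in all barcodes went from 858 to 2692 with the replicate block, 0 crossed, 2525 with no filter, 3279 with DESeq2, 1702 at 1000 UMIs and 0 to 2940 leaving 1 out, and in empty droplets from 3883 to 0 to 4802 leaving 1 out. Member calls by class went from 36 to 56 against the summed others, where the share of all genes called in vascular ECs also rose, from 25.2% to 43.7%. They went to 29 to 33 leaving 1 out, and within ECs from 4 to 1 to 5. The shares of all genes called in the other fits of this kind are not given here, so nothing was read from these counts. Against droplets of 100 to 300 UMIs the mean pericyte Notch3 ratio was 14.1, not 74.1. Signs turned in vascular ECs for Notch1 (−0.042) with several-class barcodes kept, Notch2 (0.35) with free RNA subtracted, Notch3 at 3000 UMIs (0.13) and with several-class barcodes kept (0.40), Notch4 when 1 mouse was left out (−0.086 to 0.94), Jag2 leaving 1 out (−0.074 to 0.30) and subtracted (−0.14), Dll1 leaving 1 out (−0.48 to 0.56), several-class kept (−0.29) and subtracted (−0.0098), and Dll4 leaving 1 out (−0.041 to 0.86). They turned in pericytes for Notch1 leaving 1 out (−0.30 to 1.39) and Notch3 with several-class barcodes kept (−0.066), and for Jag1 against the summed others in AT2 (−0.12) and secretory cells (−0.069). The cause was not tested. The other values of single members kept direction and side in 519 cases, lost the threshold in 63 and gained it in 6. At 3000 UMIs too few pericytes remained, and in droplets of 100 to 300 UMIs Notch4 and Dll1 had no UMI, so no value was had there.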
